A study of Mus musculus with 24 samples.

Results

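The genes described here are 9 genes of the retinoid visual cycle and of retinol transport, chosen by their symbols: Rdh12, Rdh8, Rdh10, Abca4, Rbp3, Rgr, Rbp4, Stra6 and Lrat. They are 9 of 46603 annotated genes among 126602 counted features in RNA libraries of mouse retinal organoids (MROs), small pieces of retina-like tissue that form in culture from stem cells. Libraries were made from 24 whole MROs, 1 per library, with 6 MROs on each culture day (D20, D22, D25, D30), and the MROs belonged to 1 independent experiment. MROs at every timepoint came from the mouse embryonic stem cell line E14TG2a and carried the control label. Solvent water is the only treatment that the labels name. By the study's methods, MROs of this kind grew in medium with N-2 supplement and fetal bovine serum and received the synthetic retinoid analog EC23 for a period that ended before D20, so that no group without serum or without this exposure was sequenced. The design thus covers 1 cell line and 1 round of differentiation, and p-values measure the spread between MROs within it.

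Vision depends on a vitamin A derivative, retinal, that is bound to the visual pigment and changes from its cis to its all-trans form when it absorbs light. In photoreceptors, the transporter Abca4 moves retinal bound to lipid across the disc membrane, and the dehydrogenases Rdh8 and Rdh12 reduce all-trans-retinal to retinol. Rbp3, the interphotoreceptor retinoid-binding protein, carries retinoids between photoreceptors and the neighboring pigment epithelium, where Lrat turns retinol into the ester from which cis-retinal is made. Retinol reaches tissues bound to Rbp4 and enters cells through the receptor Stra6.

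Genes of the photoreceptor arm rose over the 4 timepoints while Lrat and Rbp4 fell. Rdh12 increased 23.2-fold and Rdh8 16.9-fold from D20 to D30, whereas Abca4 and Rbp3, the genes with the highest CPM of the 9 at D20, increased 4.45-fold and 3.21-fold. Rdh10 increased 1.63-fold. Lrat was 7.60-fold lower and Rbp4 4.13-fold lower at D30, Stra6 did not pass the test in any comparison, and Rgr was too low to test. Between 13634846 and 19477108 reads were counted per MRO, so that 3 counts equal 0.154 to 0.22 CPM (counts scaled to a common library size), a limit that covers counting error only. In the labelled tissue, the summed level of 10 photoreceptor markers rose from a median of 2050 CPM at D20 (range 1226 to 2394) to 11057 CPM at D30 (7447 to 15038). In contrast, Rpe65, the isomerase of pigment epithelium, had between 0 and 3 counts in every MRO. Other markers of this tissue differed at D30, with 0 to 2 counts for Best1, 14 to 233 for Tyr and 17 to 490 for Tyrp1.

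The bases just before the start sites of Rbp3, Abca4, Rdh12 and Rdh8, the rising genes of the photoreceptor arm, and of Lrat, the gene with the largest fall among the 9, are shown because these genes move in opposite directions. Sequences are the 250 bases before the RefSeq start site (GRCm38.p6), 5′ to 3′ on the gene's strand. Capitals mark the letters TAATCC, the core bound by the photoreceptor factor Crx, or TGCTGA, part of the site bound by the rod factor Nrl, each on either strand (GGATTA and TCAGCA in the reverse orientation).
Rbp3, chr14:33953753-33954002, + strand: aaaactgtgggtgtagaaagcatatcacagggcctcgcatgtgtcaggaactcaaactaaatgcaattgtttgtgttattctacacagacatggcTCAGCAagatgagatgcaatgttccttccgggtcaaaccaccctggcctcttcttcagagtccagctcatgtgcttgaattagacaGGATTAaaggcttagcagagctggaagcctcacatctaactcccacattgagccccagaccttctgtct
Abca4, chr3:122044210-122044459, + strand: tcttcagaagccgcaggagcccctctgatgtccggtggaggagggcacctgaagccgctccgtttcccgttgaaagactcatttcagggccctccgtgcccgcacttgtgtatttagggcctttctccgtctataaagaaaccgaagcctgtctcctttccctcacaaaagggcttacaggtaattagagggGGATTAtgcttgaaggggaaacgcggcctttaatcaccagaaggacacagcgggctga
Rdh12, chr12:79208663-79208912, + strand: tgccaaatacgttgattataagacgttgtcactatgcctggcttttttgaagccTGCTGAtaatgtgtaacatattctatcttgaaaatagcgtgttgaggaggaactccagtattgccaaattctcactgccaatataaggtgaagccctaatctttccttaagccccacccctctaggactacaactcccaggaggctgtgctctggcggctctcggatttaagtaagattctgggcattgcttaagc
Rdh8, chr9:20818244-20818493, + strand: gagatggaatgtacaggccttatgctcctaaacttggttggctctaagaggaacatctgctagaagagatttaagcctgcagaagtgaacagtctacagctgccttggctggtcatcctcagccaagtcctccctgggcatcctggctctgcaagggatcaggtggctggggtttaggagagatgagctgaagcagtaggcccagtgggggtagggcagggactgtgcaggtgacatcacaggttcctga
Lrat, chr3:82903975-82904224, - strand: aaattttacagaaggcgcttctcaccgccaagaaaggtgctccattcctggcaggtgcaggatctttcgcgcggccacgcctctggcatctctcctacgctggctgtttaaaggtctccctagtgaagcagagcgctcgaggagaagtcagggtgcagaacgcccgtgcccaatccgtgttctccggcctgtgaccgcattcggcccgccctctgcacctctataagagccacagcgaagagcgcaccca
Rbp3 and Abca4 each held TAATCC in reverse orientation close to the start, at bases -69 to -64 and -58 to -53, where -1 is the last base before the start site. Rbp3 also held TGCTGA at -155 to -150 (reverse) and Rdh12 held it at -196 to -191 and again after the start, at bases 9 to 14. Rdh8 had neither motif in the printed bases and 2 reverse matches to TGCTGA just after the start, at bases 6 to 11 and 19 to 24. Of 32851 mouse promoters in windows of 300 bases, 7.06% held TAATCC and 19.5% held TGCTGA, so that matches are common by letters alone. Lrat held neither, and it also lacked AGGTCA and AGTTCA, letters shared by many nuclear receptor sites and present in 16.3% and 13.99% of promoters. None of these matches overlapped another. A promoter was found for 8 of the 9 genes, and Rdh10 was the one without. Matches were not confined to the rising genes. Rgr, which was too low to test, held TAATCC at -167 to -162. Stra6, which did not pass the test in any comparison, held TGCTGA at -32 to -27 in one of its promoters. Rbp4 held neither.

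Of the 8 genes that passed the filter on low counts, 7 differed between D20 and D30, 5 upward and 2 downward (edgeR's quasi-likelihood test, adjusted p under 0.01), against 26.8% of the features tested and 41.8% of the annotated genes tested (25.1% upward and 16.7% downward). For D22 against D20, 5 of 8 were called, with 1.9% of features and 3.32% of annotated genes called. For D25 against D22 the count was 6 of 8, beside 5.28% and 10.2%. For D30 against D25 it fell to 2 of 8, beside 3.51% and 7.38%. D25 against D20 and D30 against D22 each gave 7 of 8, beside 15.1% and 25.2% for the former and 21.5% and 35.5% for the latter. The joint test of the 4 timepoints called 7 of 8, with Stra6 the exception, beside 27.2% and 43.9%. The median log2 fold change of the 8 genes from D20 to D30 was 1.19, beside -0.04 over the tested features and 0.10 over annotated genes. Groups did not overlap between D20 and D30 for 7 of the 8 genes, and the share of all tested features without overlap is not given here. These are counts over genes picked by function, with earlier results of these data known.

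**Figure D1:**
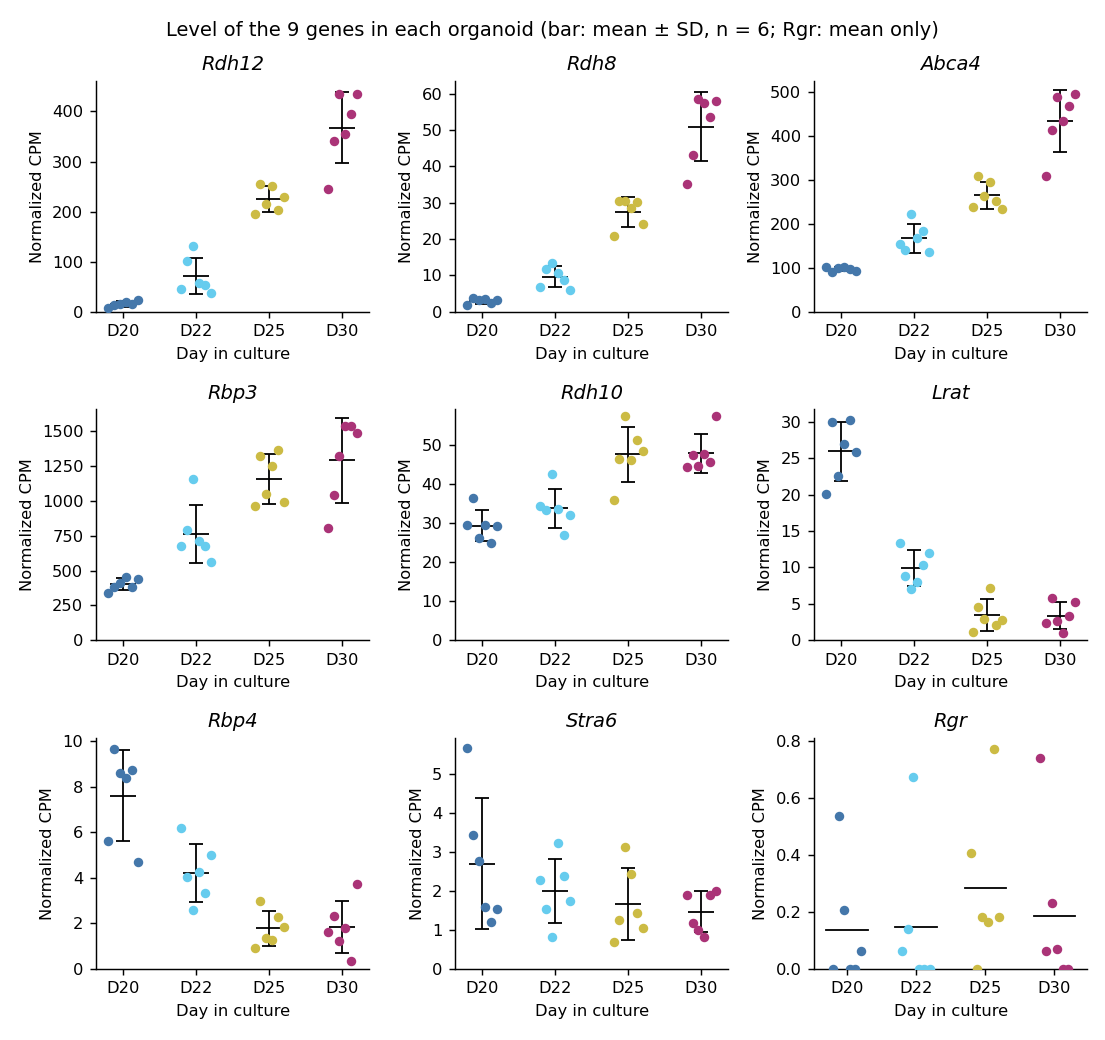
Normalized CPM (y axis, linear from 0) of the 9 genes in each MRO by day in culture (x axis), 6 points per day, with bars for the mean ± SD, or for the mean alone in Rgr. Rdh12, Rdh8, Abca4 and Rbp3 climbed from D20 to D25, Lrat and Rbp4 sank over the same days, and Rgr stayed below 1 CPM in each MRO.

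In the plot of levels by day, the photoreceptor genes separate the first 3 timepoints almost completely. Rdh12 (ENSMUSG00000021123, GRCm38 chr12:79208914-79222665, + strand), the inner segment retinal reductase, had 7.55 to 23.0 CPM at D20 with a median of 15.4. It reached 38.1 to 131 CPM at D22 (median 55.3), 194 to 256 at D25 (median 222) and 245 to 435 at D30 (median 376). The ranges of D20, D22 and D25 did not touch, and those of D25 and D30 overlapped slightly. The log2 fold change was 2.17 ± 0.24 (SE) for the step to D22 and 1.66 ± 0.23 for the step to D25, with adjusted p-values of 4.03e-06 and 2.40e-05. From D25 to D30 it was 0.71 ± 0.23 with an adjusted p of 0.0537, above the threshold of 0.01. A fit of the D25 and D30 libraries alone gave 0.71 with an adjusted p of 0.00139, so the call for this step depended on which libraries informed the spread.

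Rdh8 (ENSMUSG00000053773, chr9:20818503-20826117, + strand), the outer segment reductase for all-trans-retinal, was the least abundant of these 4 genes at D20. It had 1.75 to 3.76 CPM at D20 (median 3.35), 6.12 to 13.4 at D22 (median 9.76), 20.9 to 30.5 at D25 (median 29.4) and 35.2 to 58.6 at D30 (median 55.4). No range touched the next, which held for each of the 3 steps in Rdh8 and in no other of the 9 genes. Its log2 fold changes for the steps were 1.67 ± 0.20, 1.51 ± 0.18 and 0.89 ± 0.18 (SE), and each passed the test with adjusted p-values of 7.45e-06, 2.92e-06 and 0.00119. From D20 to D30 Rdh8 rose by 4.08 ± 0.21 and Rdh12 by 4.54 ± 0.26 on the log2 scale.

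Abca4 (ENSMUSG00000028125, chr3:122044443-122180123, + strand) rose in steps of similar size. The 6 MROs of D20 had 90.2 to 103 CPM (median 99.2), those of D22 had 136 to 223 (median 160), those of D25 had 233 to 309 (median 258) and those of D30 had 308 to 497 (median 451). The D20, D22 and D25 ranges were separate, and the lowest MRO of D30 lay just below the highest of D25. The log2 fold changes were 0.77 ± 0.11, 0.67 ± 0.11 and 0.71 ± 0.11 (SE), with adjusted p-values of 8.04e-05, 0.000191 and 6.85e-05. With a coefficient of variation of 5.59% at D20, Abca4 also varied least between MROs among the 9 genes at that day. Pseudogenes on the opposite strand lie within or across its span, and they share no exon bases with Abca4.

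Rbp3 (ENSMUSG00000041534, chr14:33954003-33964216, + strand), the retinoid carrier between cells, was the highest of the 9 genes in CPM at each timepoint. Its levels were 341 to 457 CPM at D20 (median 397), 564 to 1158 at D22 (median 693), 964 to 1367 at D25 (median 1153) and 809 to 1542 at D30 (median 1408). The D20 and D22 ranges were apart, while D22 with D25 and D25 with D30 overlapped. The log2 fold change was 0.92 ± 0.15 (SE) from D20 to D22 (adjusted p = 0.000215) and 0.60 ± 0.15 from D22 to D25 (adjusted p = 0.00601). From D25 to D30 the change of 0.16 ± 0.15 did not pass (adjusted p = 0.662). Leaving out one of D22 replicates 1, 4, 5 and 6 or D25 replicates 2, 4 and 5 ended the D25 against D22 call, with adjusted p-values of 0.0151 to 0.0213.

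The summed photoreceptor markers moved with these 4 genes, with medians of 2050 CPM (D20), 3572 (D22), 8244 (D25) and 11057 (D30). Of the 10 markers tested, 9 were called higher in the first step, 8 in the next and 3 in the last. In whole-MRO libraries, a larger share of photoreceptors and more RNA per photoreceptor cannot be told apart. D22 replicate 3 stood highest at D22 in the photoreceptor sum, at 6297 CPM, and in Rdh12, Rdh8, Abca4 and Rbp3. Without it, the D22 against D20 log2 fold change was 1.91 for Rdh12, 1.55 for Rdh8, 0.76 for Rbp3 and 0.67 for Abca4, each still called.

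**Figure D2:**
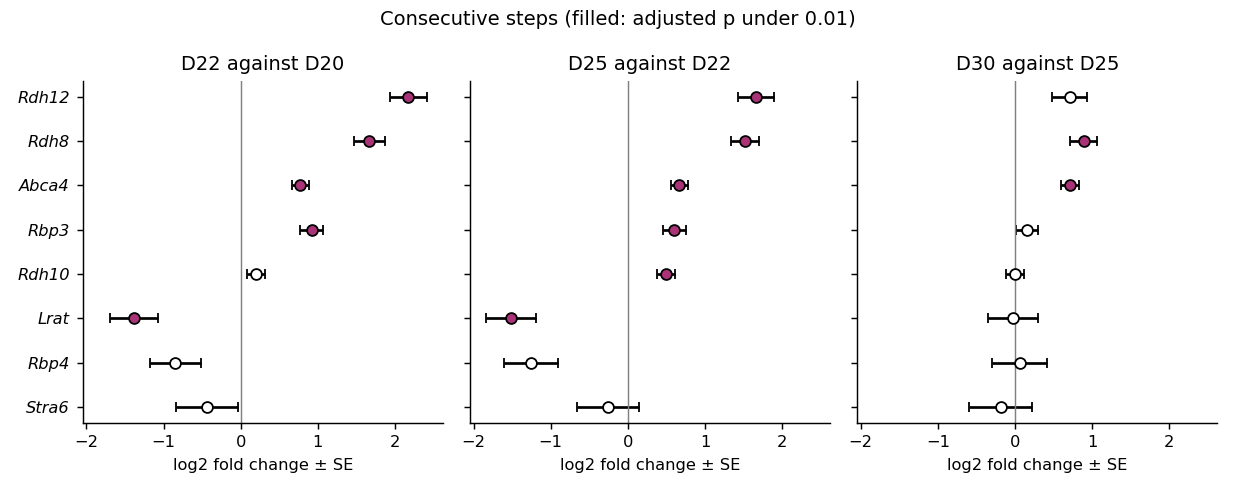
Log2 fold change with its SE (x axis) of the 8 tested genes (y axis) for the 3 consecutive steps, 1 panel each, from a fit of 24 MROs, with filled points for an adjusted p under 0.01. The 5 called genes of the first step and the 6 of the second include Lrat on the falling side, and 2 points are filled in the last step, Rdh8 and Abca4.

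As the plot of consecutive steps shows, most estimates lay nearer to 0 in the last step, but the difference between steps was itself not called for any of the 8 genes. For the third step minus the second, the difference in log2 fold change was -0.95 ± 0.38 (SE) for Rdh12 (adjusted p = 0.554) and 1.49 ± 0.57 for Lrat (adjusted p = 0.512), with 21 of the tested features called by the same edgeR test (0.0447%). Steps cover 2, 3 and 5 days and share libraries, so their sizes are not rates. For the second step minus the first, 13 features were called (0.0277%), none of the 8 among them.

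Rdh10 (ENSMUSG00000025921, chr1:16105774-16133734, + strand) oxidizes retinol to retinal and is best known for supplying retinoic acid synthesis in the embryo. Levels lay between 25.0 and 36.5 CPM at D20 (median 29.5), 27.0 and 42.6 at D22 (median 33.5), 36.1 and 57.5 at D25 (median 47.6) and 44.3 and 57.5 at D30 (median 46.6). Neighboring timepoints overlapped in each step, and the D20 and D30 MROs did not. The rise was 0.50 ± 0.12 (SE) on the log2 scale from D22 to D25 (adjusted p = 0.00502) and 0.70 ± 0.12 from D20 to D30 (adjusted p = 1.52e-05). The change was 0.20 ± 0.12 in the first step (adjusted p = 0.383) and 0.01 ± 0.12 in the last (adjusted p = 0.992). Leaving out one of D22 replicates 1, 4, 5 and 6 or D25 replicates 3, 5 and 6 moved the adjusted p for D25 against D22 to between 0.0108 and 0.0170.

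Lrat (ENSMUSG00000028003, chr3:82892579-82903973, - strand), the acyltransferase that stores retinol as its ester, fell early and then stayed low. It had 20.1 to 30.2 CPM at D20 (median 26.4), 7.02 to 13.3 at D22 (median 9.57), 1.10 to 7.25 at D25 (median 2.90) and 1.03 to 5.75 at D30 (median 2.997). D20 stood clear of D22, the highest MRO of D25 just exceeded the lowest of D22, and D25 and D30 covered nearly the same range. On the log2 scale Lrat fell by 1.38 ± 0.31 (SE) from D20 to D22 (adjusted p = 0.00630) and by 1.51 ± 0.32 from D22 to D25 (adjusted p = 0.00197). The D30 against D25 difference was -0.03 ± 0.33 (adjusted p = 0.986). The first step was near the threshold: it was lost when one of D20 replicates 2 to 6 or D22 replicates 2 to 5 was left out (adjusted p 0.0108 to 0.0238), and with annotated genes alone (0.0118). The fall from D20 to D30 was called whichever single MRO was left out, at log2 fold changes of -3.14 to -2.74.

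Rbp4 (ENSMUSG00000024990, chr19:38116629-38125281, - strand), the secreted retinol carrier of blood, fell in parallel at a lower count. Its CPM was 4.67 to 9.67 at D20 (median 8.49), 2.57 to 6.19 at D22 (median 4.14), 0.926 to 2.998 at D25 (median 1.59) and 0.326 to 3.71 at D30 (median 1.69). Single steps overlapped, and D20 was clear of both D25 and D30. The steps of -0.85 ± 0.33 and -1.26 ± 0.35 (SE) did not pass, with adjusted p-values of 0.153 and 0.0163, while the change of -2.05 ± 0.35 from D20 to D30 did (adjusted p = 2.12e-05). The second step was called by DESeq2 (adjusted p = 0.00445), in a fit of D22 and D25 alone (0.00920) and when D25 replicate 2 or D30 replicate 5 or 6 was left out (0.00547 to 0.00863). The D30 against D22 call (-1.20 ± 0.35, adjusted p = 0.00807) was lost when any of 9 MROs was left out (D20 replicate 3, D22 replicates 1, 2, 4 and 6, D30 replicates 1, 3, 4 and 5), with an adjusted p of 0.0278 at most.

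Stra6 (ENSMUSG00000032327, chr9:58063788-58153996, + strand), the membrane receptor that takes up retinol from Rbp4, varied more between MROs than between days. At D20 it ranged from 1.21 to 5.66 CPM (median 2.17), and at D30 from 0.826 to 2.00 (median 1.52). The medians of D22 and D25 were 2.00 and 1.34 CPM, and each timepoint overlapped each other one. The D30 against D20 log2 fold change was -0.88 ± 0.40 (SE) with an adjusted p of 0.0855. Without D20 replicate 1, the highest MRO, it was -0.52 (adjusted p = 0.338). Part of the span of Stra6 is shared with Ccdc33 on the opposite strand, though no exon bases are, and the strand setting of the counting is not given in the sources used here.

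Rgr (ENSMUSG00000021804, chr14:37034909-37048964, - strand), an opsin of pigment epithelium and Müller glia that binds all-trans-retinal, was at the detection limit. It had 73 counts in the 24 MROs together, of which 12 fell on D20, 13 on D22, 29 on D25 and 19 on D30, and 15 MROs held at least 1 count. No MRO exceeded 13 counts, and no fold change was computed for a gene with a mean of 2.85 normalized counts.

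Lrat, Rbp4 and Stra6 are also expressed by pigment epithelium, so the level of its markers is given beside them. The 10 markers of the list summed to a median of 161 CPM on D20 (range 135 to 251), 186 on D22 (96.4 to 334), 335 on D25 (83.3 to 679) and 435 on D30 (46.5 to 2743). Of these 10, 6 passed the filter on low counts, with a median log2 fold change of 1.45 from D20 to D30, 2 called higher and 1 called lower. Without Ttr, which other tissues share, the sum of the other 9 went the other way, with medians of 159 CPM on D20 (124 to 230), 162 on D22 (95.9 to 242), 114 on D25 (49.9 to 200) and 78.0 on D30 (26.6 to 123). D20 and D30 did not overlap in this sum, whose members were chosen after the data had been seen, and overlapped in the sum of 10. Rpe65 was at 0 to 3 counts and Best1 at 0 to 7 counts in every MRO. Tyr had 0 to 141 counts at D20 and 14 to 233 at D30, and Tyrp1 had 8 to 152 and 17 to 490. The sum of 9 thus does not give the direction of each marker. The part of pigment epithelium in the falls of Lrat and Rbp4 was not tested.

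Expressed as CPM per kilobase of exon (RPKM), the order of the genes changed between D20 and D30. At D20 the mean was 75.9 RPKM for Rbp3, 8.13 for Abca4, 7.07 for Rdh10, 5.67 for Rbp4, 5.33 for Rdh12, 4.85 for Lrat, 2.14 for Rdh8, 0.462 for Stra6 and 0.0281 for Rgr. Rbp3 stood apart from Abca4, while the genes from Abca4 to Lrat overlapped each with the next. At D30 the order was Rbp3 with 244 ± 57.2 RPKM (SD, n = 6), Rdh12 with 124 ± 24.1, Rdh8 with 36.3 ± 6.83, Abca4 with 36.2 ± 5.82 and Rdh10 with 11.5 ± 1.19. Rbp4 followed with 1.36, Lrat with 0.635, Stra6 with 0.2501 and Rgr with 0.0384. Rdh8 and Abca4 could not be ranked at D30, and neither could Rbp4 and Lrat, Lrat and Stra6, or Stra6 and Rgr, since their ranges overlapped. By mean, Rdh12 thus moved from the fifth place to the second, and Rdh8 from the seventh to the third, shared with Abca4. The range of Rdh12 at D20 overlapped those of Rbp4, Lrat and Rdh8, so these D20 places hold for the means alone.

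Within single MROs, the reductases gained on the carrier. The RPKM ratio of Rdh12 to Rbp3 began at 0.0688 ± 0.0182 (SD, n = 6) on D20 and went through 0.160 ± 0.0452 on D22 and 0.351 ± 0.0476 on D25 to 0.516 ± 0.0692 on D30. The ratio of Rdh8 to Rbp3 was 0.0280 ± 0.00616, 0.0475 ± 0.00801, 0.0897 ± 0.0102 and 0.151 ± 0.0139 at the same days. Both ratios rose in each of the 3 steps, by a two-sided exact permutation test with adjusted p of 0.00433 or 0.00742 over 12 tests, where 0.00216 is the smallest unadjusted p that 6 against 6 allows. The last step of Rdh12 over Rbp3 thus passed, at a log2 change of 0.56 ± 0.12 (SE). The level of Rdh12 did not pass in the edgeR fit, where the adjustment covered 46949 features instead of 12 tests. Unadjusted p-values for this step were close, 0.00433 for the ratio (permutation test) and 0.00378 for the level (edgeR). The ratio is therefore not the stronger evidence.

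Abca4 kept pace with Rbp3 until D25. Their ratio (± SD, n = 6) was 0.108 ± 0.0138 on D20, 0.0988 ± 0.0150 on D22 and 0.102 ± 0.0103 on D25, and then 0.152 ± 0.0201 on D30. The first steps were -0.14 ± 0.12 and 0.05 ± 0.11 (SE) on the log2 scale (exact permutation test, adjusted p = 0.300 and 0.686), and the last, 0.57 ± 0.10, passed (adjusted p = 0.00433). At D30 the lowest of the 6 MROs, at 0.124, lay above the highest of D25, at 0.110. The ratio of Rdh8 to Rdh12 was 0.424 ± 0.114 at D20 and 0.294 ± 0.0254 at D30, and none of its 3 steps passed, the lowest adjusted p being 0.0877.

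**Figure D3:**
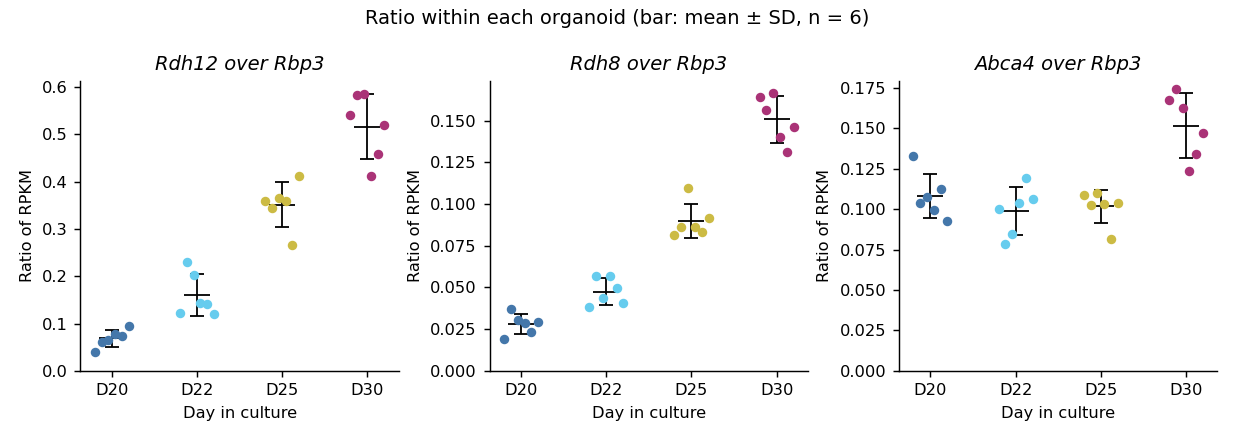
RPKM of Rdh12, Rdh8 and Abca4 divided by that of Rbp3 in the same MRO (y axis, linear from 0) by day in culture (x axis), 6 points per day, with bars for the mean ± SD. The first 2 ratios climb in each step, from 0.0688 to 0.516 and from 0.0280 to 0.151, while Abca4 over Rbp3 stays between 0.0785 and 0.133 until D25 and rises at D30.

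Across MROs, the photoreceptor genes also varied together within a timepoint. After the mean of each timepoint was subtracted from log2 CPM, Pearson's r over the 24 MROs was 0.81 between Rdh12 and Rdh8, 0.78 between Rdh8 and Rbp3, 0.76 between Rdh12 and Rbp3 and 0.76 between Abca4 and Rbp3. It was 0.48 between Rdh12 and Abca4. Lrat showed r of 0.06 with Rdh12 and -0.04 with Rbp3, and 0.31 with Rbp4, although without subtraction Lrat and Rbp4 had r of 0.82 and Lrat and Rdh12 of -0.87. These values are descriptions over MROs that share timepoints and library preparation.

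Among 10824 annotated genes outside the 9, those closest to Rdh12 over the 24 MROs included Prph2 (r = 0.995), a disc rim protein, and Kcnv2 (0.994), a potassium channel subunit of photoreceptors. Prph2 and Kcnv2 also led after subtraction of timepoint means, at 0.967 and 0.962. Rdh8 was closest to Hs3st3b1 (0.991), Mpp4 (0.991) and Bbs2 (0.988), Abca4 to Podxl (0.986), Icmt (0.983) and Mpp4 (0.979), and Rbp3 to Rtbdn (0.988), a retinal protein, D430042O09Rik (0.982) and Mir124a-1hg (0.982). After subtraction, Rtbdn remained first for Rbp3 at 0.955, while Zfp784 and Ogdhl led for Rdh8 (0.897 and 0.895) and Whrn and Podxl for Abca4 (0.829 and 0.827).

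For Lrat, Rbp4, Rdh10 and Stra6 the closest courses were looser. Lrat was nearest to Tmem123 (0.913), Pkib (0.900) and Rassf4 (0.897), and Rbp4 to the ribosomal protein gene Rpl35a (0.870), the pseudogene Eif3s6-ps2 (0.866) and Fign (0.864). After subtraction, Pou4f1 (0.751) and Gm37653 (0.705) led for Rbp4, picked as the highest of 10824 genes and not tested. Pou4f1, a factor of retinal ganglion cells, fell from 20.3 CPM at D20 to 1.96 CPM at D30 in its mean. Rdh10 was nearest to Dmac2, Acad8 and Pkig, each at 0.892, and Stra6 to Mtrf1l (0.740), Sned1 (0.730) and Cd82 (0.716).

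The pathway was also followed in a list of 24 other retinoid genes, of which 16 passed the filter on low counts. From D20 to D30, 7 of the 16 were called higher and 2 lower, beside 25.1% and 16.7% of annotated genes, with a median log2 fold change of 0.67. Single steps gave fewer calls, 1 of 16 in the first (3.32% of annotated genes), 2 in the next (10.2%) and 3 in the last (7.38%). In the plot of the pathway, the 2 dehydrogenases of the photoreceptor arm stood above the other dehydrogenases tested. Dhrs3, which reduces retinal to retinol, rose from 35.9 to 78.1 CPM (log2 fold change 1.12 ± 0.13, SE, adjusted p = 2.68e-08). Rdh11, a related reductase, had 88.3 CPM at D20 and 71.0 at D30 (adjusted p = 0.0203), and Rdh13 and Rdh14 did not pass either, at 0.364 and 0.0116. Rdh5, the dehydrogenase of pigment epithelium, had 2.46 and 5.18 CPM (adjusted p = 0.0214).

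**Figure D4:**
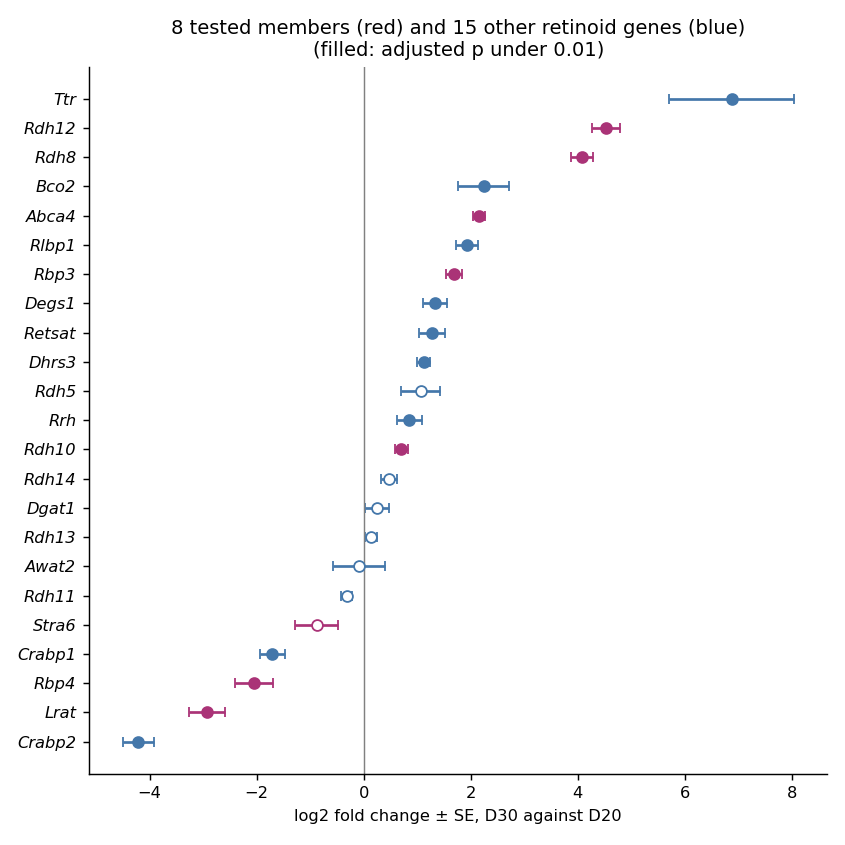
Log2 fold change with its SE for D30 against D20 (x axis) of the 8 tested genes (red) and of 15 of the 16 other tested retinoid genes (blue), sorted by value on the y axis, with filled points for an adjusted p under 0.01. Ttr is at the top with the widest error (6.88 ± 1.16), followed by Rdh12 and Rdh8, and Crabp2 and Lrat are at the bottom.

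Binding proteins went both ways. Rlbp1, the cis-retinal carrier of Müller glia and pigment epithelium, rose from 34.7 to 132 CPM between D20 and D30 (log2 fold change 1.93 ± 0.21, SE, adjusted p = 1.14e-08). Of the 9 Müller glia markers, a list that holds Rlbp1, 8 were called higher in the same comparison, and their summed level had medians of 796 CPM at D20 and 2950 at D30. Crabp2, which carries retinoic acid to its receptors, ranged from 124 to 221 CPM at D20 and from 6.40 to 12.4 at D30, without overlap. It fell in each step, with a log2 fold change of -4.21 ± 0.29 (SE) over the whole span (adjusted p = 8.95e-13). Crabp1, the related carrier, had 36.0 CPM on D20, 49.98 on D22 and 35.9 on D25, where single MROs ranged from 12.8 to 69.8, and fell by 1.70 ± 0.23 on the log2 scale to 11.04 at D30 (adjusted p = 1.09e-05).

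The remaining called genes were small in level except one. Degs1, an enzyme also credited with isomerizing retinol, rose from 9.82 to 24.8 CPM, Retsat, retinol saturase, from 2.78 to 6.73, Rrh, an opsin of pigment epithelium, from 5.12 to 9.28, and Bco2, a carotenoid-cleaving enzyme, from 0.585 to 2.79. Ttr, which binds Rbp4 in blood, was the exception. Its mean climbed from 8.41 CPM (D20) through 33.0 (D22) and 262 (D25) to 987 ± 1217 (SD, n = 6) at D30. The D30 MROs ranged from 19.9 to 2627 CPM with a median of 358, so that the lowest of them lay within the D20 range of 0.739 to 21.0. Replicates 2 and 6 held the highest values, 2627 and 2461 CPM, and the 4 others were at or below 462. The call from D20 to D30 (log2 fold change 6.88 ± 1.16, SE, adjusted p = 1.87e-05) thus rests on groups that overlap. Of 8 choroid plexus markers, a list that holds Ttr, 7 were tested. Between D20 and D30, 6 of them were called higher and 1 lower, beside 25.1% and 16.7% of annotated genes. Liver and endoderm markers summed to 27.3 CPM in D30 replicate 6, to 13.5 in D30 replicate 5 and to at most 0.489 in any other MRO. The part of other tissue in the rise of Ttr was not tested.

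**Figure D5:**
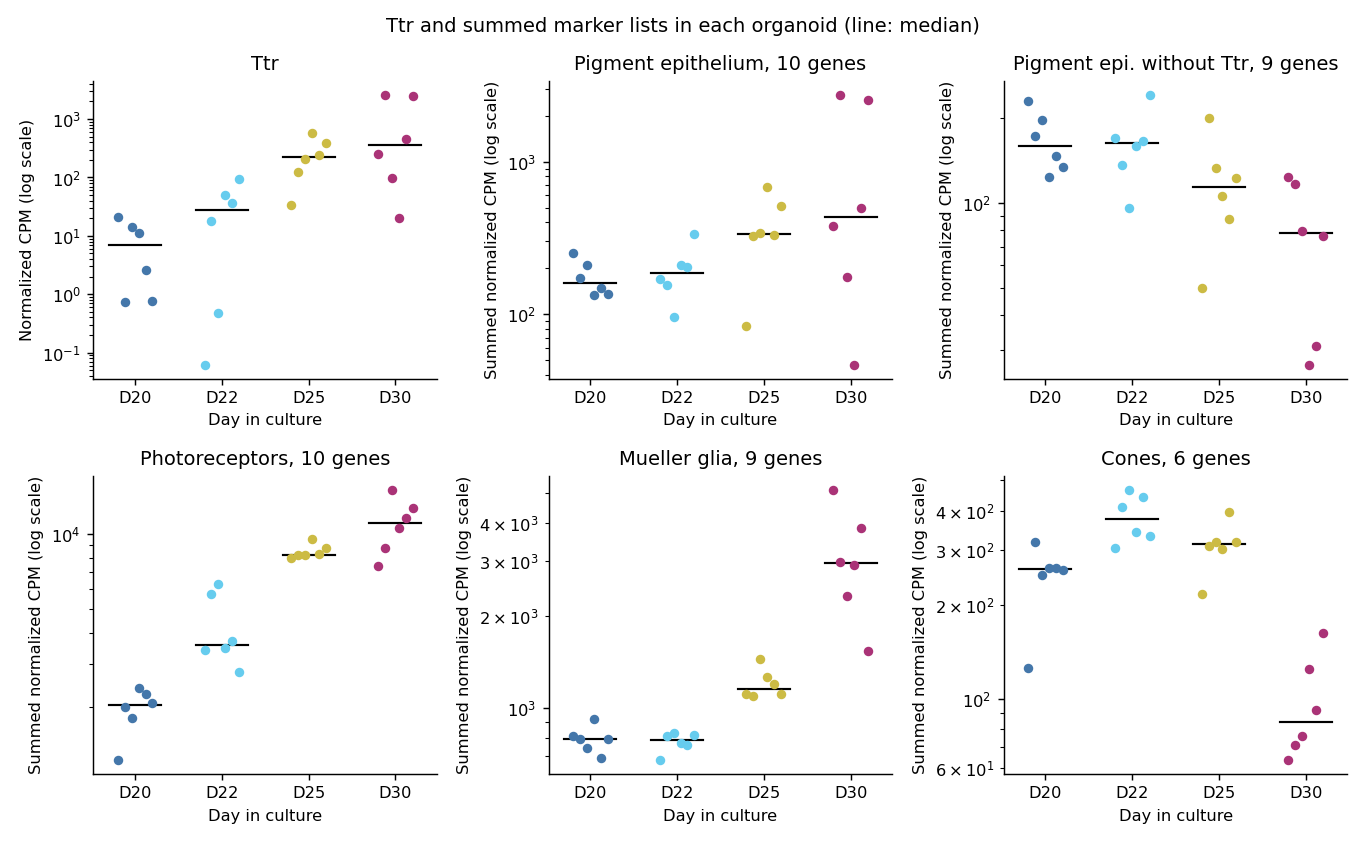
Normalized CPM (y axis, log scale) of Ttr and of 5 summed marker lists in each MRO by day in culture (x axis), 6 points per day, with a line at the median. Photoreceptor markers rise from a median of 2050 to 11057 and Müller glia markers from 796 to 2950, the pigment epithelium sum goes from 161 to 435 with Ttr and from 159 to 78.0 without it, cone markers go from 260 to 84.1, and Ttr spreads from 19.9 to 2627 at D30.

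The plot of marker lists also shows that lists moved in different directions between D20 and D30. Photoreceptor and Müller glia markers were called higher in 9 of 10 and 8 of 9 cases. Of the 5 cone markers tested, 2 were called higher and 2 lower, and of the 7 mesenchyme and meninges markers tested 6 were called higher, with median sums of 14.7 and 148 CPM. Choroid plexus markers, Ttr included, had median sums of 336 and 416 CPM, and cortex neuron markers of 50.4 and 178 CPM. Ttr alone had medians of 6.86 CPM at D20 and 358 CPM at D30. The choroid plexus sum thus does not give the direction of its other markers. The part of each cell type in the changes of the 9 genes was not tested.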

How the data were processed

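RNA was sequenced from 24 individual MROs as strand-specific libraries depleted of ribosomal RNA. Per the labels and the study's methods, the authors trimmed reads with cutadapt (1.5), aligned them with HISAT2 to GRCm38/mm10, assembled transcripts with StringTie (1.3.3) and counted reads per feature with HTSeq (0.6.1). The deposited values are raw counts per feature, and whether counting used the strand is not given in the sources used here. Timepoints and replicate numbers came from the sample titles.

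Features averaging 10 or more normalized counts entered the analysis (46949, with 16253 annotated genes among them). The main test was the quasi-likelihood test of edgeR (4.0.16; R 4.3.3) after TMM scaling, with 1 fit of 24 MROs, no covariates, Benjamini-Hochberg adjustment over the kept features and a threshold of 0.01. DESeq2 (1.42.0) served as an alternative, as did its size factors, other filters, annotated genes alone, a replicate block, fits of 2 timepoints and the omission of each MRO. SEs were derived from the test statistic. The common coefficient of biological variation was 0.385.

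RPKM used the summed exon bases of each gene in a GENCODE annotation of GRCm38. No exon base of the 9 genes was shared with an exon of another annotated gene. Ratios of RPKM were tested by exact permutation in SciPy (1.17.1). These 12 tests, and the pigment list without Ttr, were added after the data had been seen. In simulated counts for D25 against D22 over 47007 features, edgeR recovered 98.9% of 4-fold and 54.6% of 2-fold changes, at a smaller dispersion than that of the data. In 60 pairs of MROs of the same timepoint, none agreed within sampling noise (lowest chi-square per degree of freedom 6.09).

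The 9 genes, the other retinoid genes, the marker lists and the motifs were chosen with earlier results of these data known. Named genes are the 9 genes, the other retinoid list and, for each tested gene, the 3 annotated genes with the highest correlation of log2 CPM over 24 MROs and the 2 highest after subtraction of timepoint means, among genes averaging 100 or more normalized counts. Some genes that these rules or lists hold are not reported here. Promoters are those of RefSeq. Figures were drawn with matplotlib (3.10.9) in Python (3.11.15).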

Additional observations from a re-analysis of the deposited data

Results flagged for a closer look

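Single MROs stood far from the other 5 of their timepoint in 4 of 96 groups of gene and timepoint, where a gap to the nearest MRO above 0.625 of the group's range was taken as far. Chance alone flags about 1 in 20 groups, so that this number is within what it gives. Rdh10 was 57.5 CPM in D30 replicate 6, while the other 5 lay between 44.3 and 47.8. Rdh5 was 7.45 CPM in D25 replicate 3, beside 2.03 to 3.82 in the others. Rrh reached 9.43 CPM in D20 replicate 4, beside 3.20 to 5.41. Degs1 reached 13.0 CPM in D22 replicate 6, beside 4.65 to 7.02. Without D30 replicate 6, Rdh10 remained called from D20 to D30 (log2 fold change 0.64).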

How the results depend on the processing

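The number of the 8 genes called stayed within 1.5 times its value in each of the 6 comparisons and in the joint test of 4 timepoints, under every alternative run. Of single-gene log2 fold changes under alternatives that kept 24 MROs, or the MROs of 2 timepoints, 321 kept direction and side of the threshold, 7 lost the call, 3 gained it and 5 changed sign. When each MRO was left out in turn, 1103 kept both, 32 lost the call, 3 gained it and 14 changed sign. Sign changes concerned D30 against D25, where the estimates were near 0 and uncalled: Rdh10 at -0.0226 without a filter on low counts, -0.0169 with filterByExpr and -0.0322 with annotated genes alone, and Lrat at 0.0158 with DESeq2 and 0.0173 with its size factors. Leaving out single MROs gave -0.0637 to 0.0795 for Rdh10, -0.28 to 0.27 for Rbp4, -0.34 to 0.10 for Stra6 and -0.24 to 0.34 for Lrat. With annotated genes alone, the calls of Rdh10 (adjusted p = 0.0147) and Rbp3 (0.0192) for D25 against D22 and of Rdh10 for D30 against D22 (0.0107) were lost, and the D30 against D22 call of Rbp4 was lost with DESeq2's size factors (0.0114) and in a fit of the 2 timepoints (0.0300). The cause was not tested. DESeq2 called 1605 features for D22 against D20 where edgeR called 894.

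Each library is another MRO, and the titles do not say what MROs of the same replicate number share. Over 36 pairs of the same number, deviations from the timepoint means had r of -0.08 to 0.21. The mean r was 0.01, beside -0.003 for pairs of different numbers, and 6 of 24 MROs correlated best with their own number. No pairing was assumed in the main fit. The replicate block moved the D22 against D20 change of Lrat to -1.35 (adjusted p = 0.0109), past the threshold, and changed no other call of the 8 genes. Depth limits Rgr, which had too few counts to test.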
